A study of Homo sapiens with 4 samples.

Results

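The genes described here are 8 kidney genes: the developmental transcription regulators PAX2, PAX8, WT1, LHX1, EYA1 and GATA3, and the segment markers CUBN (proximal tubule) and SYNPO (podocyte). They were taken by gene symbol from a table of 58735 genes, and each symbol matched 1 row. RNA had been sequenced from HEK293T, an established human embryonic kidney line that carries the SV40 large T antigen, here with its own PBRM1 gene disrupted by CRISPR. PBRM1 (BAF180) is a bromodomain and BAH domain subunit of the PBAF chromatin remodelling complex. Every library came from these PBRM1-disrupted cells 48 h after transfection with a plasmid for GFP-tagged PBRM1, carrying the change P1048R, T1202K or C1233W in the mutant groups and no change in the WT group. There was 1 library per construct, 4 in all, so the intervals below cover counting error only and no difference has a replicate check. The labels do not say whether the edited line was 1 clone, and cells without a plasmid were not analysed here.

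The kidney forms from the ureteric bud, an outgrowth of the nephric duct, and from the metanephric mesenchyme, which condenses around its tips and gives rise to nephrons. PAX2 and its close relative PAX8 are paired-box factors that specify the nephric lineage, and GATA3 and LHX1 act with them in the nephric duct and ureteric bud. EYA1, a coactivator and phosphatase that works with homeodomain partners, and the zinc finger factor WT1 are needed in the mesenchyme, and WT1 persists in podocytes, the filtering cells of the glomerulus. CUBN encodes cubilin, an endocytic receptor of the proximal tubule brush border, and SYNPO encodes synaptopodin, an actin-associated protein of podocyte foot processes.

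Total counts were 11205322 in P1048R, 10993748 in T1202K, 10348552 in C1233W and 10246250 in WT. Levels are in CPM, read counts divided by the library size after TMM scaling, and a floor of 3 reads lay between 0.251 and 0.321 CPM. PBRM1 itself stood at 8805 CPM in P1048R, 15262 in T1202K and 60509 in C1233W, against 22768 in WT. The mutants thus differed from WT and from each other in PBRM1 RNA as well as in the amino acid change, and with 1 library each these cannot be told apart.

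CUBN and SYNPO are the genes that met the size rule given below, so the bases before their RefSeq start sites (GRCh38.p14) are shown, 5′ to 3′ on the gene's strand. Capitals mark matches to 3 short motifs on either strand: AGATAA for GATA factors, TAATTA for LIM-homeodomain factors such as LHX1, and GCGTGGG for WT1. The motifs do not overlap in these windows.
CUBN, window before its start (chr10:17129812-17130061, minus strand): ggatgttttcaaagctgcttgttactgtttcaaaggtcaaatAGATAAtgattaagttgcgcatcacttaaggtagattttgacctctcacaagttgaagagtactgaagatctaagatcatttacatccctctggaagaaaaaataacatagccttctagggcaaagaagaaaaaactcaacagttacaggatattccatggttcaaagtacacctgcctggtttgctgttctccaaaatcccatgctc
SYNPO, window before its upstream start (chr5:150600826-150601075, plus strand): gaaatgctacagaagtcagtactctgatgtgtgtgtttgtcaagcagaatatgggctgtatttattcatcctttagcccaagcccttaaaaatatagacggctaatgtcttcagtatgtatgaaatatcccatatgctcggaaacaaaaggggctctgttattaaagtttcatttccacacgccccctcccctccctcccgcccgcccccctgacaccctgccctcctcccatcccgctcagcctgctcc
SYNPO, window before its downstream start (chr5:150640410-150640659, plus strand): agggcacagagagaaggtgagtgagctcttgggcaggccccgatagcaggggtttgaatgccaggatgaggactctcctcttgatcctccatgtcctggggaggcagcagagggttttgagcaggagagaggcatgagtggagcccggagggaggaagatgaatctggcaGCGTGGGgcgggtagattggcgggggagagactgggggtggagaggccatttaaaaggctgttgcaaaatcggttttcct
The CUBN window held 1 AGATAA, which 9.17% of the 35116 RefSeq windows of this length (250 bases) held on either strand. Its GC content was 38.0%, against a median of 58% over all windows, and it held 1 CpG against a median of 11. The downstream SYNPO window held 1 GCGTGGG (6.19% of all windows), and the upstream one held none of the 3. RefSeq gave 16 such windows for 6 of the 8 genes, all but LHX1 and EYA1, and 1 of the 16 held AGATAA, 1 held TAATTA (4.35% of all windows; it belongs to WT1) and 1 held GCGTGGG. A match is a description of the letters and not a binding site.

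Of the 8 genes, 7 were expressed, in the sense of at least 1 CPM in every library, and PAX8 was not. Per exon length, as RPKM (CPM divided by exon length in kb) averaged over the 4 libraries, GATA3 stood highest at 15.9, above 81.8% of the 16262 genes tested. EYA1 (1.20 RPKM), WT1 (1.19), PAX2 (0.998) and LHX1 (0.993) lay close together, above 20.8% to 23.7% of genes. The segment markers were the lowest of the expressed genes, with SYNPO at 0.306 RPKM and CUBN at 0.277, above 6.01% and 5.10% of genes. Of the regulators, GATA3 thus stood above most genes tested, EYA1, WT1, PAX2 and LHX1 were low, and PAX8 was not expressed. CUBN and SYNPO, the segment markers among the 8, lay near the bottom of the genes tested.

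**Figure D1:**
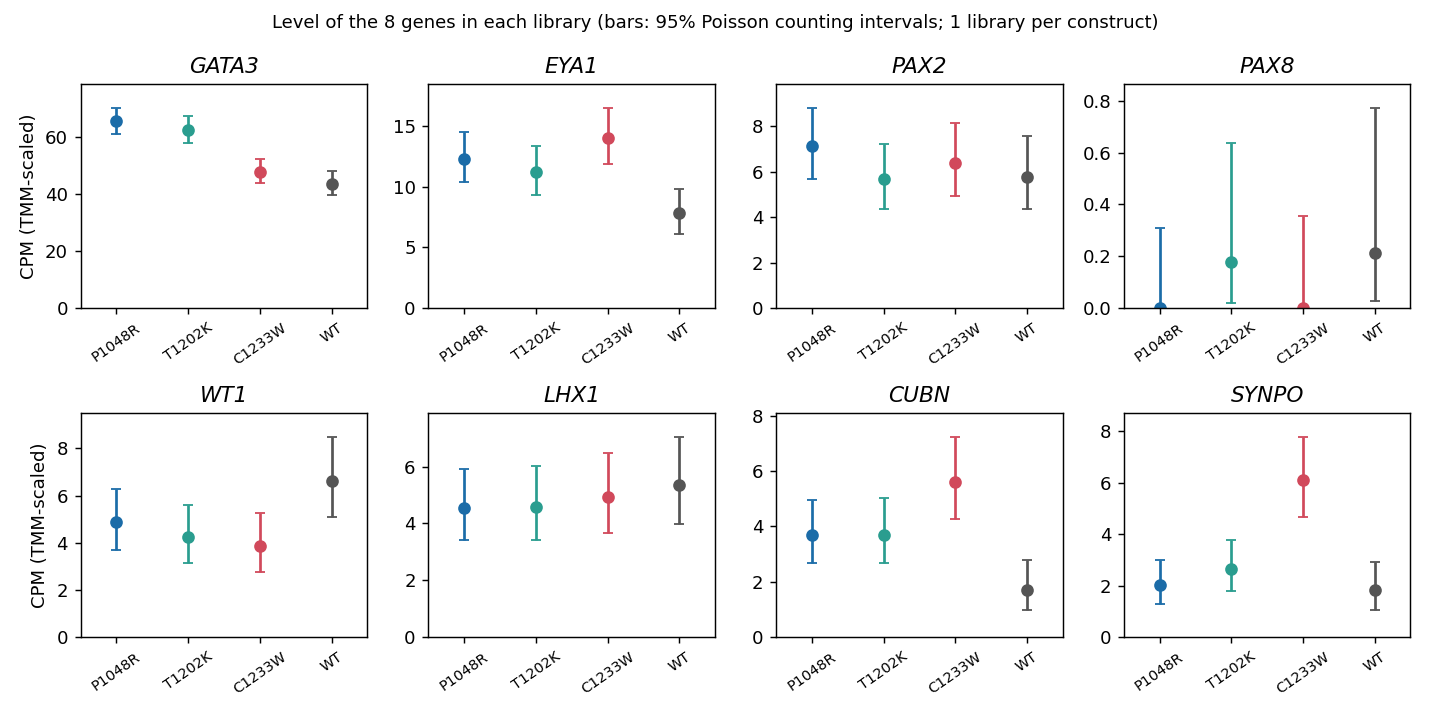
Level of each of the 8 genes in CPM (y axis, linear, own scale per gene) in the P1048R, T1202K, C1233W and WT libraries, with 95% Poisson counting intervals. GATA3 lies between 43.5 and 65.3 CPM, CUBN is lowest in WT, SYNPO is highest in C1233W, and PAX8 is at 0 to 2 reads.

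GATA3, a zinc finger factor of the ureteric bud and collecting duct on the plus strand of chromosome 10 (ENSG00000107485, 8045378 to 8075203 in GRCh38), had 780 reads in P1048R, 705 in T1202K and 493 in C1233W, against 407 in WT. These were 65.3 CPM (60.8 to 70.1), 62.3 (57.7 to 67.0) and 47.7 (43.6 to 52.1), against 43.5 (39.4 to 48.0). P1048R and T1202K were thus high, and C1233W and WT low. The log2 ratio to WT was 0.58 (0.41 to 0.76) in P1048R and 0.51 (0.34 to 0.70) in T1202K, both beyond counting error and under 2-fold. In C1233W it was 0.13 (−0.06 to 0.32). On total-count scaling, which moves the median of all genes to 0.19 in P1048R and 0.13 in C1233W, the GATA3 ratios were 0.81 and 0.26, and the C1233W interval excluded 0 (0.07 to 0.46). C1233W also lay below P1048R by −0.45 (−0.62 to −0.29) and below T1202K by −0.38 (−0.55 to −0.22). P1048R and T1202K did not differ beyond counting error (−0.07 for T1202K over P1048R, −0.22 to 0.08).

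PAX2 (chromosome 10, 100735603 to 100829941) had 85, 64 and 66 reads in P1048R, T1202K and C1233W, against 54 in WT. Its levels of 7.12, 5.65 and 6.38 CPM, against 5.78 in WT, overlapped in their intervals, and no pair of libraries differed beyond counting error. In P1048R the log2 ratio to WT was 0.30 (−0.21 to 0.82), which on total-count scaling became 0.52 with an interval just above 0 (0.02 to 1.05). LHX1, a LIM-homeodomain factor on chromosome 17 (36936785 to 36944612), had the narrowest range of the 7 expressed genes. It had 54, 52 and 51 reads in P1048R, T1202K and C1233W and 50 in WT, or 4.52, 4.59 and 4.93 CPM against 5.35. Its highest level was 1.18 times its lowest. The log2 ratio to WT was −0.24 (−0.82 to 0.34) in P1048R, −0.22 (−0.81 to 0.37) in T1202K and −0.12 (−0.71 to 0.48) in C1233W. All 3 intervals included 0.

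PAX8 (chromosome 2, 113215997 to 113278950) had 0 reads in P1048R, 2 in T1202K, 0 in C1233W and 2 in WT, at or below the floor in every library, so no ratio is given. Of the reads on PAX2 and PAX8 together, PAX8 took 3.03% in T1202K (95% exact binomial interval 0.369% to 10.5%) and 3.57% in WT (0.435% to 12.3%). In P1048R it had 0 of 85 reads, with an upper limit of 4.25% by the same interval, and in C1233W 0 of 66, with an upper limit of 5.44%. Taken as 3 reads of the total, a count of 0 allows a share of up to 3.53% in P1048R and 4.55% in C1233W. PAX2 and not PAX8 was therefore the measured member of this pair. Its antisense neighbour PAX8-AS1 had 0, 1 and 3 reads in P1048R, T1202K and C1233W and 0 in WT.

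WT1, on the minus strand of chromosome 11 (32387775 to 32435630), had its highest level in WT, the library and not the gene. It had 58, 48 and 40 reads in P1048R, T1202K and C1233W, against 62 in WT, or 4.86, 4.24 and 3.87 CPM against 6.63. The ratio to WT was −0.77 (−1.39 to −0.18) in C1233W and −0.64 (−1.22 to −0.08) in T1202K. In P1048R it was −0.45 with an interval that reached 0 (−0.99 to 0.09). On total-count scaling the T1202K interval also reached 0 (−0.47, −1.05 to 0.10). The 3 mutants did not differ from each other in WT1 beyond counting error. The divergent RNA gene WT1-AS, which overlaps the start of WT1 on the opposite strand, had 18, 15 and 13 reads in the mutants and 11 in WT. Without a stated strand setting for the counting, reads of such pairs cannot be told apart with certainty.

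EYA1, on chromosome 8 (ENSG00000104313), was lowest in WT. It had 147 reads in P1048R, 127 in T1202K and 145 in C1233W, against 73 in WT, or 12.3 CPM (10.4 to 14.5), 11.2 (9.35 to 13.3) and 14.0 (11.8 to 16.5), against 7.81 (6.12 to 9.82). The log2 ratios of 0.65 (0.24 to 1.08), 0.52 (0.10 to 0.96) and 0.84 (0.43 to 1.27) each excluded 0 and were each under 2-fold. Of all genes tested, 10.4% were likewise higher than WT in all 3 mutants with intervals excluding 0, at any size. The mutants did not differ from each other in EYA1 beyond counting error. All 3 comparisons share the 1 WT library.

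The size rule asked for a log2 ratio of at least 1 in size (2-fold) with a 95% counting interval excluding 0. Against WT, it was met by 1 of the 7 expressed genes in P1048R, 1 in T1202K and 2 in C1233W, all in the higher direction. Over all genes tested, 4.48% were higher by the rule in P1048R, 2.95% in T1202K and 4.19% in C1233W. Genes averaging 1 to 10 CPM, the range of CUBN and SYNPO and a band chosen after their values were seen, met it upward more often, at 8.09%, 5.45% and 9.75%. None of the 7 was lower by the rule, where 3.02%, 2.21% and 1.21% of all genes were. The median log2 ratio of the 7 was 0.30, 0.51 and 0.14 in P1048R, T1202K and C1233W, beside medians of −0.04, −0.01 and −0.01 over all genes. A count of 1 or 2 of 7 rests on 1 or 2 genes, and nothing about the group is read from it. Counting intervals excluded 0 at any size upward in 3 of the 7 genes in each mutant, where 23.9%, 22.2% and 19.7% of all genes did so, and downward in 0, 1 and 1 of the 7, where 27.1%, 22.3% and 24.8% did.

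CUBN, on the minus strand of chromosome 10 (ENSG00000107611, 16823966 to 17129817), had 44 reads in P1048R, 42 in T1202K and 58 in C1233W, against 16 in WT. Its levels were 3.69 CPM (2.68 to 4.95), 3.71 (2.67 to 5.01) and 5.61 (4.26 to 7.25), against 1.71 (0.979 to 2.78). WT was low, P1048R and T1202K did not differ beyond counting error, and C1233W was highest. The log2 ratio to WT was 1.08 (0.25 to 2.03) in P1048R, 1.09 (0.25 to 2.05) in T1202K and 1.68 (0.89 to 2.61) in C1233W. CUBN was the 1 gene of the 8 to meet the rule against WT in all 3 mutants, as 1.25% of all genes tested did upward, and 2.76% of those averaging 1 to 10 CPM. C1233W lay above P1048R by 0.60 with an interval barely clear of 0 (0.02 to 1.21), and above T1202K by 0.59 with one that reached it (−0.0007 to 1.21). No other gene in the annotation overlaps CUBN.

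SYNPO, on the plus strand of chromosome 5 (ENSG00000171992, 150601080 to 150659220), had 24 reads in P1048R, 30 in T1202K and 63 in C1233W, against 17 in WT. At 6.09 CPM (4.68 to 7.80), C1233W was the 1 library set apart, above 2.01 (1.29 to 2.99) in P1048R, 2.65 (1.79 to 3.78) in T1202K and 1.82 (1.06 to 2.91) in WT. C1233W was higher by 1.71 (0.95 to 2.61) against WT. It was higher by 1.58 (0.90 to 2.34) against P1048R, where 3.73% of all genes were higher by the rule, and by 1.19 (0.55 to 1.88) against T1202K, where 3.05% were. P1048R and T1202K did not differ from WT beyond counting error (0.13, −0.81 to 1.13, and 0.52, −0.36 to 1.49). C1233W was also the library with the highest PBRM1 level, and the part of that level in the SYNPO result was not tested. T1202K against P1048R, the remaining pair, had no gene of the 7 past the rule, where 0.572% of all genes were higher and 0.664% lower.

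**Figure D2:**
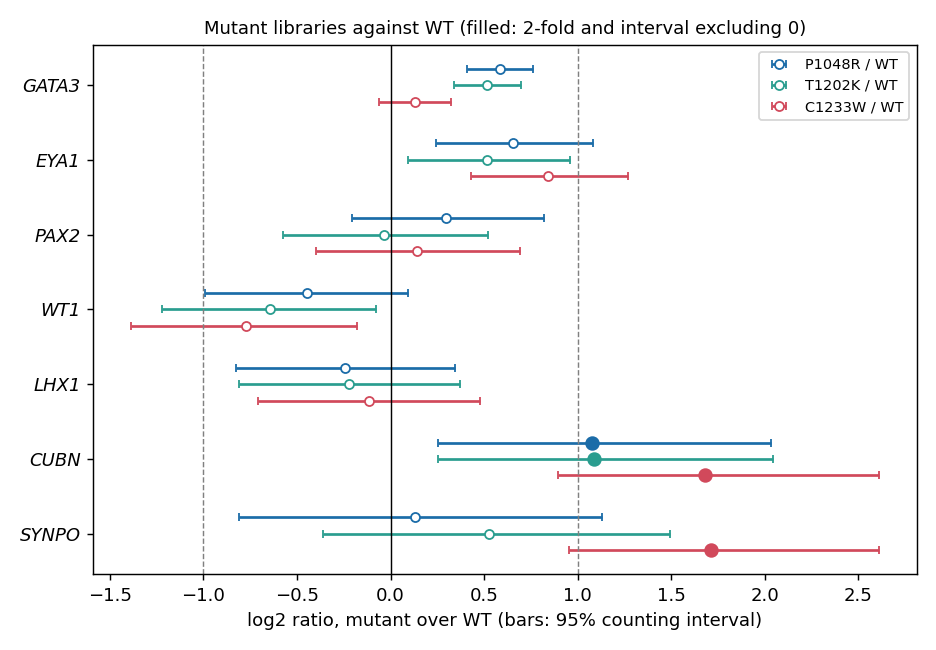
Log2 ratio of each mutant library over WT (x axis) for the 7 expressed genes, with 95% counting intervals; dashed lines mark 2-fold and filled points meet the size rule. CUBN is past 2-fold in all 3 mutants and SYNPO in C1233W (1.71), whereas GATA3 and EYA1 lie between 0 and 1 and WT1 below 0.

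By centred log2 level over the 4 libraries, the genes most like CUBN, among those reaching 5 CPM in at least 1 library, were ANKRD24 (Euclidean distance 0.12 on the log2 scale), the stress-inducible sestrin gene SESN2 (0.18) and the nuclear receptor gene NR4A1 (0.25). SESN2, for example, stood at 61.8 CPM in P1048R, 62.5 in T1202K and 99.2 in C1233W, against 34.1 in WT. Those most like SYNPO were the neurotrophin receptor gene NGFR (0.17), AGAP2 (0.19) and ELFN1 (0.19). Within a distance of 0.5 lay 70 of 12186 such genes for CUBN and 21 for SYNPO, so with 4 libraries a likeness of this kind is shared by many genes. ANKRD24 and ELFN1 reached 5 CPM in C1233W alone, so the minimum favours genes high in that library.

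Within their families, most of the 8 genes were not the most abundant member. On the mean RPKM over the 4 libraries, GATA3 made up 28.7% of the 6 GATA genes, next to GATA6 (32.9%) and GATA2 (24.8%). The order differed between libraries. In P1048R GATA3 (33.3%) stood above GATA6 (30.6%). In WT GATA3 (24.3%) stood below GATA6 (37.3%) and GATA2 (25.9%), and in T1202K and C1233W it lay between them. The other shares are also of the mean. EYA1 made up 6.09% of the 4 EYA genes, of which EYA3 (59.9%) and EYA4 (28.8%) were the main ones. PAX2 made up 10.2% of the 9 PAX genes, after PAX9 (35.4%), PAX3 (27.6%) and PAX6 (15.0%), which are known from other embryonic tissues. LHX1 made up 11.2% of 8 LHX genes, of which LHX2 (38.4%) was highest, and SYNPO made up 60.1% of the synaptopodin family of 3.

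**Figure D3:**
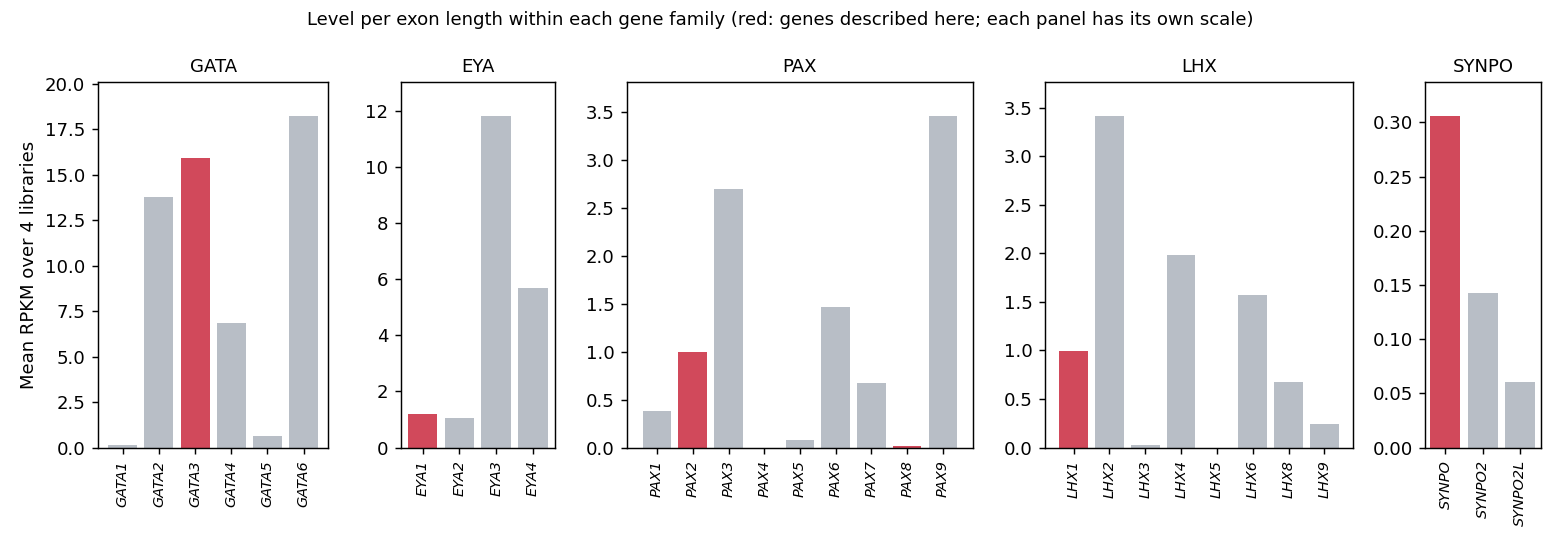
Mean RPKM over the 4 libraries (y axis, linear, own scale per panel) for the members of 5 gene families, with the genes described here in red. GATA3 (15.9) is among the 3 leading GATA genes, whereas EYA1, PAX2 and LHX1 stand well below the leading member of their families and PAX8 is near 0.

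The list of relatives held 28 genes, among them SIX3, SIX4, SIX5 and SIX6, which are not of these families and encode homeodomain proteins of a group that partners EYA proteins. Of the 28, 22 were tested. By the size rule 2 were higher and 1 lower in P1048R, 2 and 1 in T1202K, and 2 and 0 in C1233W. Over all genes tested the shares were 4.48% higher and 3.02% lower in P1048R, 2.95% and 2.21% in T1202K, and 4.19% and 1.21% in C1233W. SIX5 was higher in P1048R by 1.25 (0.64 to 1.94) and in T1202K by 1.22 (0.60 to 1.91), though under 2-fold in both once the trend on GC content and length was taken out (0.97 and 0.76). PAX5 had 15 reads in P1048R, 14 in T1202K and 5 in C1233W but 0 in WT. Set against a floor of 3 reads in WT, its level was 3.91-fold higher in P1048R and 3.85-fold higher in T1202K. These folds leave out the counting error of the mutant reads. With that error, the lower limit of the PAX5 log2 ratio to WT was 1.49 in P1048R and 1.45 in T1202K. PAX5 was tested only through those libraries, where it reached 1 CPM, as its level was 0.484 CPM in C1233W. SYNPO2, a relative of SYNPO, was higher in C1233W by 1.17 (0.30 to 2.16), as was LHX9 by 1.11 (0.38 to 1.94). SIX3 was lower in P1048R (−1.58, −3.15 to −0.29) and PAX1 in T1202K (−1.16, −2.19 to −0.22), of which PAX1 was under 2-fold on total counts (−0.98). All of these were at low levels, with 86 reads at most in a library. The most abundant genes of this list, EYA3 (76.7 CPM on average) and SIX4 (73.8), did not meet the rule in any mutant. None of 5 tested antisense or neighbouring genes of the 8 met the rule, with EIF3M (168 CPM on average) and AATF (165) the most abundant.

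Other genes of kidney development and of nephron segments were followed in 6 lists, which hold 110 genes of the table, the 8 included. Of these, 59 had at least 1 CPM in every library, 40 were under 1 CPM in all 4, and 7 had no reads. The segment lists were expressed in part, with 14 of 19 podocyte genes and 7 of 20 proximal tubule genes at 1 CPM in every library. The podocyte surface protein gene PODXL (38.4 CPM on average) and the proximal receptor gene LRP2 (40.7) were among those read well, and 8 others that are named here had at most 4 reads in any library. Both sets were chosen after their values were seen. The 8 included nephrin (NPHS1), the proximal transporters SLC34A1 and SLC22A6, the loop of Henle transporter SLC12A1 and the distal tubule transporter SLC12A3. The rest were uromodulin (UMOD), the water channel AQP2, and the nephron factor HNF4A. Beside SYNPO, NPHS1 was above the floor of 3 reads in C1233W alone, at 4 reads.

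The progenitor and metanephric mesenchyme list was the most fully expressed, with 15 of 18 genes at 1 CPM in every library. The adhesion molecule NCAM1 was among its most abundant members (66.3 CPM on average). Of its 17 tested genes only MEOX1 met the rule, at 0.838 CPM in P1048R and 0.706 in T1202K against 2.25 in WT (−1.39, −2.67 to −0.27, and −1.62, −3.05 to −0.44). In C1233W no gene of this list did. Of all genes tested, 3.02% were lower by the rule in P1048R and 2.21% in T1202K. The list medians were −0.18, −0.03 and −0.09 in P1048R, T1202K and C1233W, and turned positive on total counts (0.17, 0.17 and 0.05), where the median of all genes was 0.19, 0.17 and 0.13.

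The ureteric bud and collecting duct list, led by GATA3 and SOX9 (28.3 CPM on average), had 14 of 23 genes tested, and 0, 0 and 2 of them higher by the rule in P1048R, T1202K and C1233W, with none lower. The 2 were the ETS factors ETV4 and ETV5, known as targets of RET signalling at the ureteric bud tip. Over all genes tested, 4.48%, 2.95% and 4.19% were higher by the rule in P1048R, T1202K and C1233W. ETV4 stood at 8.42 CPM in C1233W against 2.14 in WT (1.95, 1.26 to 2.76) and ETV5 at 9.67 against 2.67 (1.83, 1.21 to 2.55). In P1048R and T1202K their ratios of 0.44 to 0.53 had intervals that reached 0. The renal vesicle list, with NOTCH2 (234 CPM on average) and POU3F3 (79.4) highest, had 10 of 18 genes tested and none past the rule in any mutant.

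In the podocyte list, 15 of 19 genes were tested, with the forkhead factor gene FOXC1 (359 CPM on average) and ACTN4, an actin crosslinker (182), highest. In C1233W 2 of the 15 were higher by the rule, SYNPO and CLIC5, with CLIC5 at 3.87 CPM against 1.71 in WT (1.15, 0.31 to 2.11). None met the rule in P1048R or T1202K. Of all genes tested, 4.48%, 2.95% and 4.19% were higher by the rule in P1048R, T1202K and C1233W. The list medians were −0.21, −0.10 and 0.09. In the loop of Henle and distal tubule list, 6 of 16 genes were tested and WNK1 (528 CPM on average) and WNK4 (10.5) were highest. Lower by the rule were EGF in P1048R (−1.17, −2.48 to −0.01) and T1202K (−1.58, −3.14 to −0.31) and the cadherin CDH1 in P1048R (−1.20, −1.96 to −0.49). None of this list did so in C1233W. On total counts neither passed in P1048R (−0.95 for EGF and −0.97 for CDH1). Of all genes tested, 3.02% were lower by the rule in P1048R, 2.21% in T1202K and 1.21% in C1233W.

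**Figure D4:**
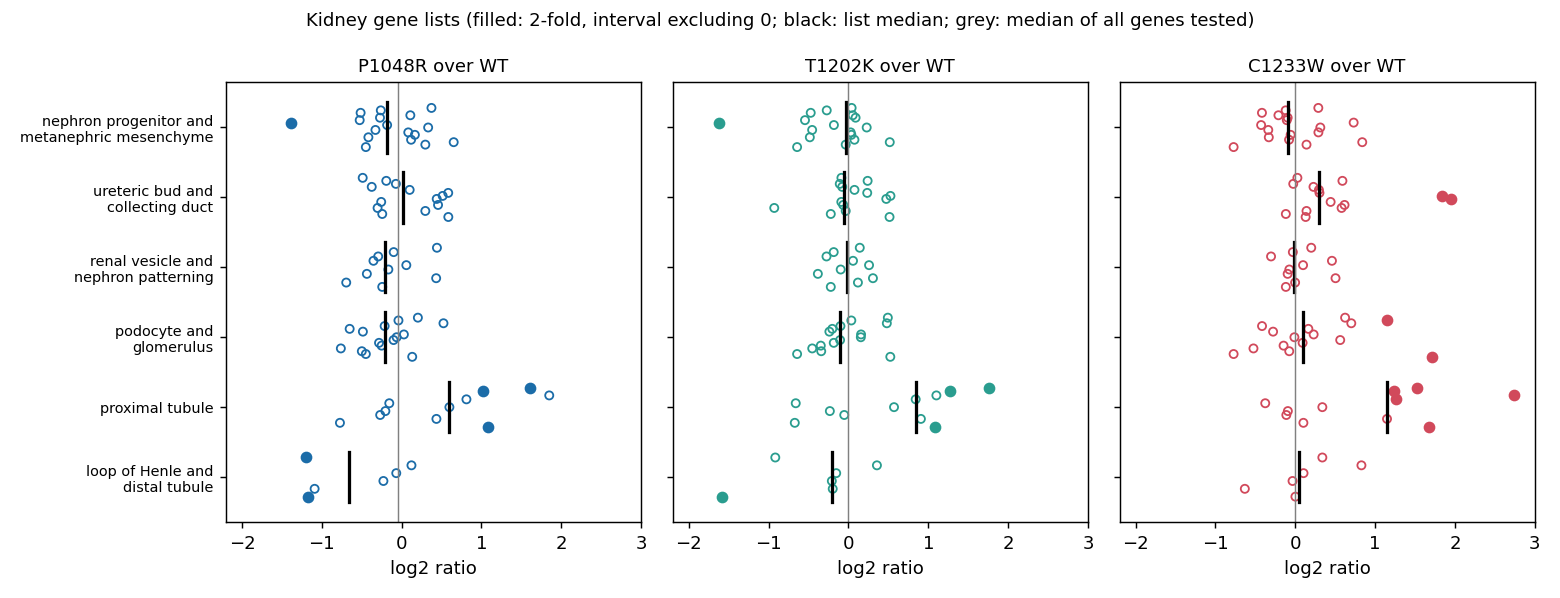
Log2 ratio over WT (x axis) of each tested gene in 6 kidney lists, in 1 panel per mutant; filled points meet the size rule, black bars are list medians and the grey line is the median of all genes. The proximal tubule list has the highest median in each panel (0.60, 0.84 and 1.15), and the other lists have medians between −0.21 and 0.30 except the distal list in P1048R (−0.66). The proximal median leans upward by construction, as AMN, SLC5A2, ANPEP and PDZK1 were tested only through mutant libraries. The distal median in P1048R leans downward, as EGF and TRPM6 (0.838 CPM each there) were tested only through libraries where they were higher. TRPM6 is named after its values were seen.

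The proximal tubule list, to which CUBN belongs, had 11 of 20 genes tested. By the rule 3 were higher in P1048R, 3 in T1202K and 5 in C1233W, and none was lower. Over all genes tested, 4.48%, 2.95% and 4.19% were higher by the rule. Among those averaging 1 to 10 CPM, 8.09%, 5.45% and 9.75% were. CUBN, the sodium bicarbonate cotransporter gene SLC4A4 and the scaffold gene PDZK1 met the rule in all 3 mutants. Of all genes tested, 1.25% did so upward. SLC4A4 stood at 8.71, 10.4 and 10.2 CPM in P1048R, T1202K and C1233W, against 4.28 in WT (1.01, 0.49 to 1.59; 1.27, 0.76 to 1.84; 1.24, 0.71 to 1.81). In P1048R the SLC4A4 ratio fell just short of 2-fold with thinned counts (0.98), with 2 added to each count (0.98) and after correction for GC content and length (0.99). PDZK1, which has close copies nearby and is uncertain, had 21, 22 and 17 reads, against 5 in WT. In C1233W the gamma-glutamyltransferase gene GGT1 (1.26, 0.38 to 2.29) and the aminopeptidase gene ANPEP (18 reads against 2 in WT; 2.74, 0.96 to 6.18) also met it. GGT1 has near-identical relatives that could share its reads. ANPEP in WT lay below the floor of 3 reads, so the size of its ratio is uncertain. The most abundant genes of the list, the chloride transporter gene CLCN5 (43.9 CPM on average) and LRP2 (40.7), did not meet the rule.

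The median log2 ratio of the 11 was 0.60 in P1048R, 0.84 in T1202K and 1.15 in C1233W. Of the 11, AMN, SLC5A2, ANPEP and PDZK1 were under 1 CPM in WT and were tested only through a mutant library where they were higher, so the count and the median lean upward by construction. Over the 6 genes that reached 5 CPM in a library, the medians were −0.18, −0.14 and 0.01, and CUBN and SLC4A4 were the 2 that met the rule in each mutant. CUBN reached 5 CPM in C1233W alone and SLC4A4 in the 3 mutants but not in WT, so these 6 lean upward by construction too.

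CUBN acts with amnionless, encoded by AMN, which carries it to the cell surface, with the large endocytic receptor megalin, encoded by LRP2, and with the adaptor encoded by DAB2. AMN and DAB2 are named here after their values were seen. LRP2 was at 28.98, 31.1 and 53.2 CPM in P1048R, T1202K and C1233W, against 49.5 in WT. Its ratio to WT was −0.77 (−0.98 to −0.57) in P1048R and −0.67 (−0.88 to −0.47) in T1202K, against higher CUBN in the same libraries, and 0.10 (−0.08 to 0.28) in C1233W. AMN had 9, 12 and 13 reads against 5 in WT, with intervals reaching 0 in each mutant. DAB2 was at 29.5, 34.3 and 32.9 CPM against 35.5. CUBN was thus higher in all 3 mutants without a like difference in LRP2 or DAB2. The AMN ratios (0.44, 0.91 and 1.15) lay in the same direction as CUBN, on too few reads to tell either way.

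**Figure D5:**
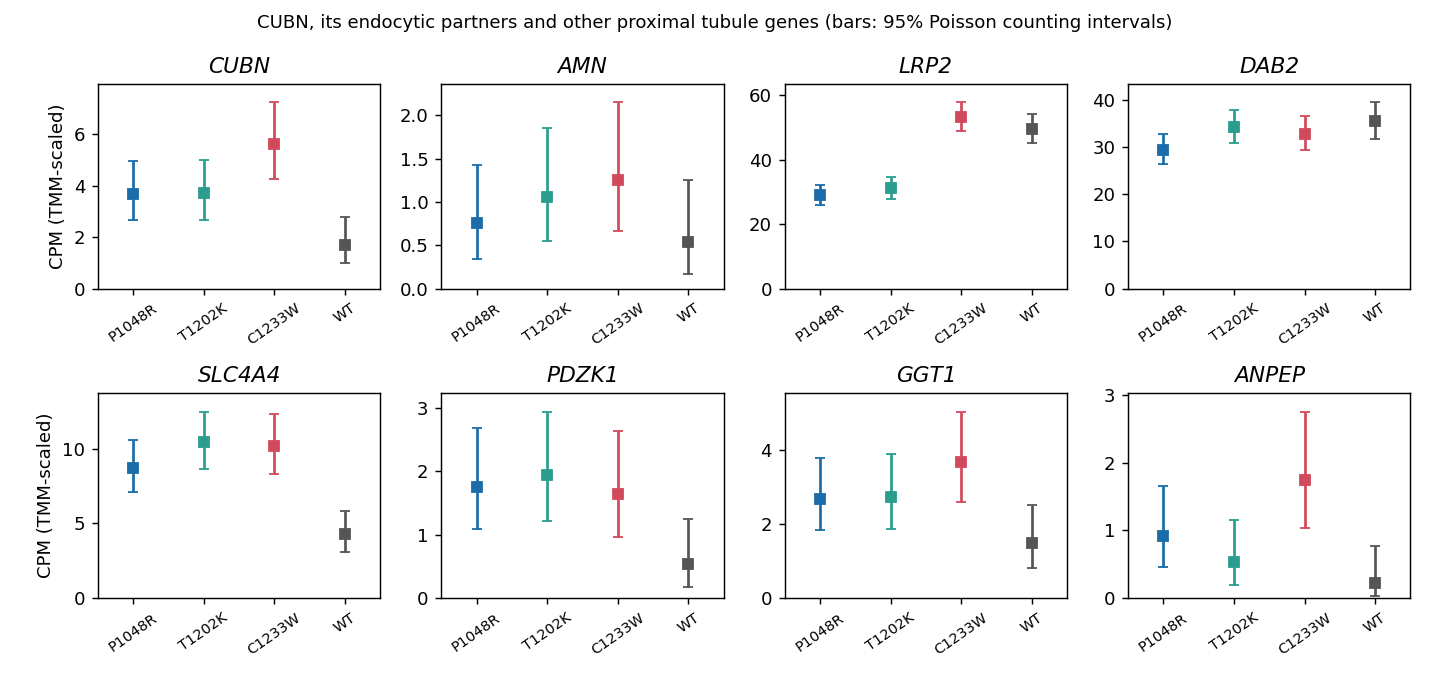
CPM (y axis, linear, own scale per gene) in each library for CUBN, its endocytic partners AMN, LRP2 and DAB2, and the proximal tubule genes SLC4A4, PDZK1, GGT1 and ANPEP, with 95% Poisson counting intervals. CUBN, AMN, SLC4A4, PDZK1, GGT1 and ANPEP are lowest in WT, where AMN, PDZK1 and ANPEP have at most 5 reads. LRP2 is lowest in P1048R (28.98) and T1202K (31.1), and DAB2 is lowest in P1048R (29.5).

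Over the 6 lists joined, 70 genes were tested, and 3 were higher and 3 lower by the rule in P1048R, 3 and 2 in T1202K, and 9 and 0 in C1233W. On total counts 71 were tested, with 5 higher and 1 lower in P1048R, 4 and 2 in T1202K, and 9 and 0 in C1233W. As shares of the 70 the first counts were 8.57%, 7.14% and 12.9%. Without the 8 genes the shares were 7.94%, 6.35% and 11.1% of 63. Of all genes tested, 7.50% met the rule in P1048R, 5.15% in T1202K and 5.40% in C1233W. Among genes averaging 1 to 10 CPM, the share higher by the rule was 8.09%, 5.45% and 9.75%. That share counts the higher direction only, whereas the shares of the 70 and of the 63 count both directions. The joined lists also hold genes outside that range of levels. Markers of other cell types were also counted. Of 16 adrenal and neural markers 5 were tested, and their summed level was 256 CPM in P1048R, 294 in T1202K and 303 in C1233W, against 491 in WT, mostly from the neurofilament genes NEFM (223 CPM on average) and NEFL (107); ELAVL4 had no reads. By the rule NEFM was lower and TUBB3 higher in P1048R, and CHGA lower and TUBB3 higher in C1233W. Of 12 stromal, endothelial and blood markers 6 were tested, with sums of 27.1, 33.6 and 52.7 CPM against 47.0 in WT, and none was without reads in all 4 libraries. The most abundant were COL1A1 (24.6 CPM on average) and COL3A1. By the rule CLDN5 was higher and COL3A1 and KDR were lower in P1048R, and CLDN5 and LCP1 were higher in C1233W. NEFM and COL3A1 were under 2-fold on total counts (−0.78 and −0.79). TUBB3 and CLDN5 were under 1 CPM in WT (0.642 CPM each) and were tested only through mutant libraries where they were higher. Likewise MEOX1, EGF, SIX3, KDR and CHGA were under 1 CPM in the mutants where they are called lower. No adrenal, neural, stromal, endothelial or blood marker met the rule in T1202K. The part of these markers in the kidney gene results was not tested.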

How the data were processed

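The authors deposited raw read counts for every gene in each of the 4 libraries, not normalized. Per the submitters' processing notes, which give no versions, Trim Galore, HISAT2 and featureCounts were used with hg38. The sources do not give the gene annotation, the strandedness of counting or how multi-mapping reads were handled. All 58735 gene IDs matched GENCODE release 29 (GRCh38), which gave coordinates, exon lengths, transcript lengths and GC content.

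Library sizes were scaled by TMM in edgeR 4.0.16 (R 4.3.3). Genes reaching 1 CPM in any library (16262) were compared, adding 0.5 to each count before the log2 ratio. Intervals (95%) are exact Poisson for levels and Clopper-Pearson of the share of reads in 1 of 2 libraries for ratios. They cover counting error only, as there was 1 library per construct. PCR copies are not independent molecules, so the intervals may be too narrow even for counting error. With 1 library per construct no p-value was computed. The ratio and size rule were tried on counts simulated with planted ratios and Poisson error only. Such counts hold no other variation between libraries, so they cannot show how the rule behaves without replicates. The members and lists were chosen with earlier results of these data known. Genes named are the 8, those of each list past the rule in a mutant against WT, the 2 most abundant of each list, and the 3 nearest in pattern; others are said to be chosen after their values were seen. Some genes that the rule names are not reported here. Alternatives were total-count scaling, DESeq2 1.42.0 size factors, PBRM1 left out, thinned counts, 2 added to each count, GC and length trend removed, no filter and 5 CPM.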

Additional observations from a re-analysis of the deposited data

How the results depend on the processing

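The genes of the 8 that met the size rule were the same in all 6 pairs of libraries under the 8 alternatives run: CUBN in each mutant against WT, and SYNPO in C1233W against the other 3 libraries. With 2 added to each count, CUBN in P1048R was just at 2-fold (1.0005). Of 126 ratios of the 7 genes under 6 alternatives, 125 stayed within their counting interval; the other was GATA3 in P1048R on total counts (0.81). Of the 126, 3 changed sign, all close to 0: PAX2 in T1202K (0.14) and LHX1 in C1233W (0.01) on total counts, and PAX2 in C1233W with the GC and length trend removed (−0.08).

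At a minimum of 5 CPM, 3 of the 8 genes counted as expressed instead of 7. The genes past the size rule then numbered 603, 359 and 330 of 12193 in P1048R, T1202K and C1233W against WT, beside 1219, 838 and 878 of 16262. Those of the 6 kidney lists numbered 3, 2 and 5, beside 6, 5 and 9. Fewer genes are tested at that minimum by construction. The split of all genes past the rule was 728 higher and 491 lower in P1048R, 479 and 359 in T1202K, and 681 and 197 in C1233W. On total counts it was 1253 and 231, 806 and 221, and 943 and 125. Of the 18 medians of the kidney lists, 9 turned positive on total counts and none turned negative; removing the GC and length trend turned 2 negative, and at 5 CPM 1 turned positive and 3 negative. At 5 CPM the split of all genes was 432 and 171, and 284 and 75, in P1048R and T1202K.

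Among the other genes named, calls were also lost for NEFM and COL3A1 in P1048R with DESeq2 size factors (−0.96 and −0.98), LCP1 in C1233W with 2 added to each count (0.97) and TUBB3 in C1233W with the GC and length trend removed (1.29, interval reaching 0). The EGF call in P1048R was also lost with DESeq2 size factors (−1.13), thinned counts (−1.03) and the trend removed (−1.16), as its interval reached 0. Calls were gained on total counts for GGT1 in P1048R (1.04) and T1202K (1.02) and for ANPEP (2.07) and LCP1 (1.15) in P1048R. They were also gained for ANPEP in P1048R with thinned counts (1.99), and for NEFM and COL3A1 in T1202K with the GC and length trend removed (both −1.01).

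No paired analysis was possible because there was 1 library per construct. Leaving out a replicate was not run for the same reason. Depth limits PAX8 (0 to 2 reads) and, at 16 to 63 reads a library, the size of the CUBN and SYNPO differences.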
